A study of Rattus norvegicus with 56 samples.

Results

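The livers of adult male rats that had been calorie restricted before birth and then raised on a high-fat, high-fructose diet (IUGR-HFhf) were compared with those of control males (CON) at 1 time of day. All were offspring of Sprague-Dawley rats, an outbred laboratory strain, and livers were taken at day 180 in the light phase, at zeitgeber time 4 (ZT4, in a cycle of 12 h light and 12 h dark). IUGR-HFhf dams were calorie restricted by 50% from gestation day 10 until birth, a model of intrauterine growth restriction (IUGR), and were then switched to a Western diet and drinking water with 25% fructose, which continued to the end of the experiment. CON ate regular chow throughout. The members are the 6 male ZT4 libraries with these 2 group labels, 3 in each, of 56 libraries in the series. The groups differ in diet before birth and in diet after birth, so these 2 exposures cannot be told apart here. Another male ZT4 group of 3 libraries, HFhf, had the Western diet and fructose from gestation day 11 of the dams with no calorie restriction, and is used only for reference. The labels name no litters or cages, so the p-values measure a spread between libraries. That spread was estimated within the 16 groups of all 56 libraries, not from these 6 alone. The sample labels call the tissue mouse liver while the organism is given as rat, and series text also names pancreas, which was not analysed here.

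The liver takes up fructose and glucose, turns the surplus into fatty acids and triglycerides, and makes cholesterol from acetyl-CoA. The transcription factor SREBP-1c together with ChREBP switches on fatty acid synthesis when insulin and sugar are high. SREBP-2 switches on the cholesterol pathway when sterols in the cell are low, and dietary cholesterol lowers its activity. Many of these genes also follow the time of day, through feeding and through the circadian clock, in which BMAL1 (gene Arntl) and CLOCK drive the period, cryptochrome and Rev-erb genes that in turn repress them.

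Between 6.43 M and 8.46 M reads (M, mega) were counted to genes in each of the 6 libraries, and the median over the series was 9.17 M. Hepatocyte markers made up 190750 to 206470 CPM (counts scaled per library to a common total) in CON and 203537 to 218698 in IUGR-HFhf. Of 17 pancreas markers 8 had no read in any of the 6 libraries, and their sum was at most 6.4 CPM. Of 14 skeletal muscle markers 6 were at 0, and the sum was at most 5.45 CPM. RNAs without a poly(A) tail, such as Rmrp and replication-dependent histones, summed to 1188 to 1982 CPM in CON and 2037 to 4225 CPM in IUGR-HFhf. The groups did not overlap in this sum. Most of it was Rmrp, with 1076 to 1854 CPM in CON and 1892 to 4072 CPM in IUGR-HFhf. None of the 12 such RNAs tested was called, while 5 lay wholly above CON and 0 wholly below (all genes 9.98% and 10.9%). The part that RNA selection plays in the results below was not tested.

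Of 11047 genes tested with edgeR's quasi-likelihood test, 51 changed between IUGR-HFhf and CON at an adjusted p under 0.05 (Benjamini-Hochberg), which is 0.462% of the genes tested. Of these 24 were higher (0.217%) and 27 lower (0.244%). In CPM, the 3 libraries of each group did not overlap in 49 of the 51. The exceptions were Hdc and Pde7a. For comparison, the groups did not overlap in 2307 of all genes tested (20.9%), with IUGR-HFhf above CON in 1103 (9.98%) and below in 1204 (10.9%). The change was at least 2-fold in 30 of the called genes. Over all genes the median log2 fold change (IUGR-HFhf over CON) was 0.0071, and 1356 genes had an unadjusted p under 0.05. In the authors' deposited table for the same groups 53 genes were higher and 48 lower at an adjusted p under 0.05, and 47 of the 51 genes called here were among them with the same direction. The other 4, Ryr2, Car1, Slc29a4 and LOC688765, had no adjusted p there. A further 54 genes passed in the authors' table and were not called here, among them Fasn, Srebf1, Thrsp, Cpt1a, Igf1, Dbp, Per3 and Marco. The number of calls fell with each library left out. It was 3 without CON replicate 2, 7 without IUGR-HFhf replicate 2 and 10 without IUGR-HFhf replicate 3. It was 18 without CON replicate 3, 24 without CON replicate 1 and 42 without IUGR-HFhf replicate 1. In the last of these fits 30 of the 51 genes stayed called. No called gene changed sign when a library was left out.

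**Figure D1:**
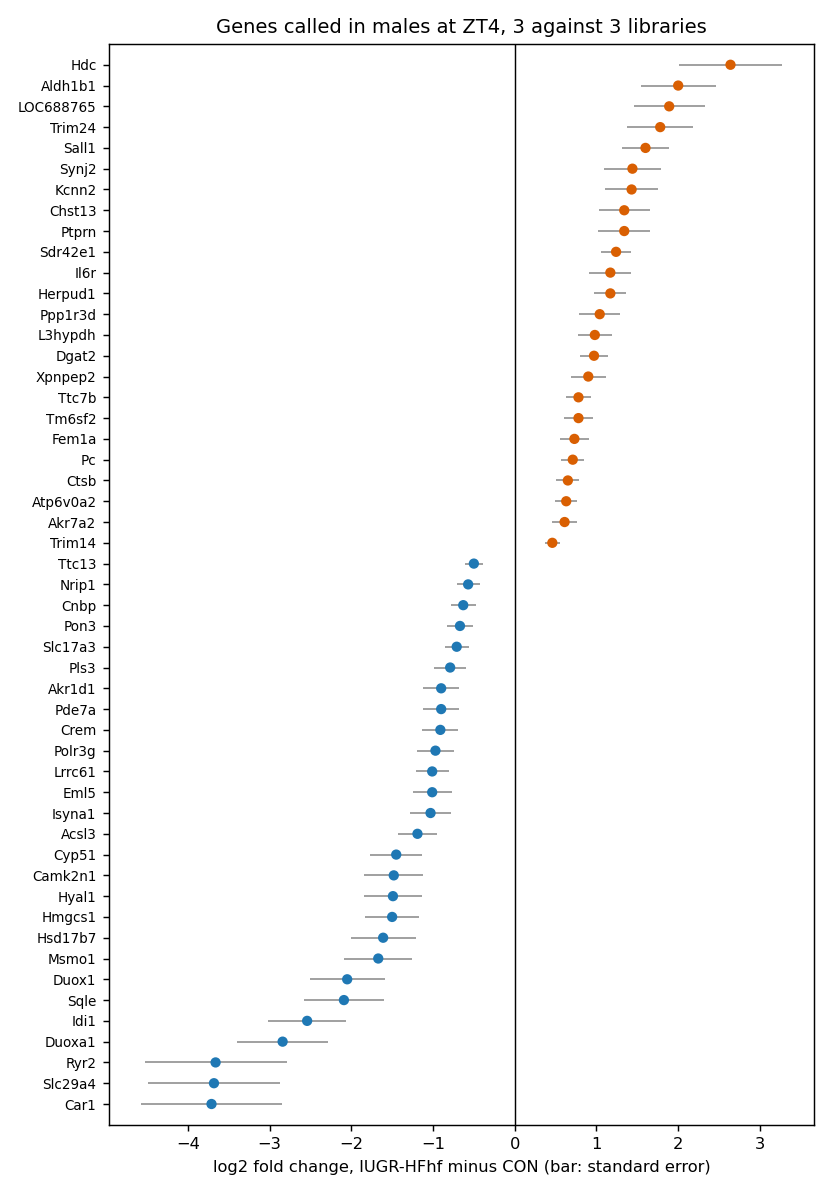
The horizontal axis gives the log2 fold change of IUGR-HFhf over CON in males at ZT4 for each of the 51 called genes, 3 libraries against 3, with bars for the standard error. The 24 higher genes reach 2.64 (Hdc), and among the 27 lower genes Car1, Slc29a4 and Ryr2 have wide bars.

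Genes of cholesterol synthesis fell. Of 28 listed genes of cholesterol synthesis and uptake, all of them tested, 6 fell and 0 rose, against 0.244% of all genes called lower. The fallen genes were Hmgcs1, Idi1, Sqle, Cyp51, Msmo1 and Hsd17b7. The list's median log2 fold change was -0.57, against 0.0071 over all genes, and 26 of the 28 values were negative. In 15 of the 28 every IUGR-HFhf library lay below every CON library, where 10.9% of all genes did so.

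The fallen genes sit at several steps of the route. Hmgcs1 makes HMG-CoA, the entry to the mevalonate pathway. Its level was 586, 764 and 695 CPM in CON and 292, 188 and 240 CPM in IUGR-HFhf. The groups lay far apart, with all 3 IUGR-HFhf livers well below the lowest CON liver, and the log2 fold change was -1.50 (SE 0.333, adjusted p = 0.0246 in edgeR). Idi1 converts isopentenyl diphosphate to its isomer, the unit from which sterols are built. It had 40.4, 60.9 and 36.3 CPM in CON and 12.3, 6.20 and 5.23 CPM in IUGR-HFhf. Among the genes of the list this fall was the largest, at -2.54 (SE 0.477, adjusted p = 0.00805 in edgeR), and IUGR-HFhf replicate 1 was the least reduced of its group.

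Sqle, the squalene epoxidase that commits squalene to sterols, was 30.6, 42.8 and 31.2 CPM in CON and 12.3, 5.81 and 6.46 CPM in IUGR-HFhf. Again replicate 1 was the highest of the IUGR-HFhf livers and still below every CON liver (log2 fold change -2.09, SE 0.490, adjusted p = 0.0385 in edgeR). Cyp51, the lanosterol demethylase, went from 269, 331 and 220 CPM in CON to 131, 95 and 73.3 CPM in IUGR-HFhf, giving -1.45 on the log2 scale. Msmo1, the next oxidase of the route, had 82.5, 133 and 89.3 CPM in CON and 44.2, 30.3 and 20.9 CPM in IUGR-HFhf, a log2 fold change of -1.67. In both genes the groups were separate and replicate 1 was the highest of the 3 IUGR-HFhf values. Hsd17b7, a sterol ketoreductase, was expressed at a low level, 7.26, 6.87 and 5.95 CPM in CON and 1.53, 2.45 and 2.56 CPM in IUGR-HFhf. Its log2 fold change was -1.61 (SE 0.398, adjusted p = 0.0466 in edgeR).

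The other genes of the list did not pass. Dhcr7, which carries out the last reduction, was separate between the groups, with 160 to 185 CPM in CON and 93.4 to 111 CPM in IUGR-HFhf, and missed the threshold (-0.81, adjusted p = 0.0994 in edgeR). Srebf2, which encodes SREBP-2, had a log2 fold change of -0.02 with overlapping groups. Outside the list Acsl3, a long-chain acyl-CoA synthetase, fell: it was 25.8, 41.5 and 42.5 CPM in CON and 21.7, 12.8 and 13.5 CPM in IUGR-HFhf (-1.19, SE 0.235, adjusted p = 0.00887 in edgeR).

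The count of 6 lower cholesterol genes depended on single libraries. It was 5 without IUGR-HFhf replicate 1, 2 without CON replicate 1 or CON replicate 3, and 0 without CON replicate 2, IUGR-HFhf replicate 2 or IUGR-HFhf replicate 3. The size of the change moved less: the log2 fold change of Idi1 stayed between -3.02 and -2.28, and that of Hmgcs1 between -1.68 and -1.36, whichever library was left out.

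**Figure D2:**
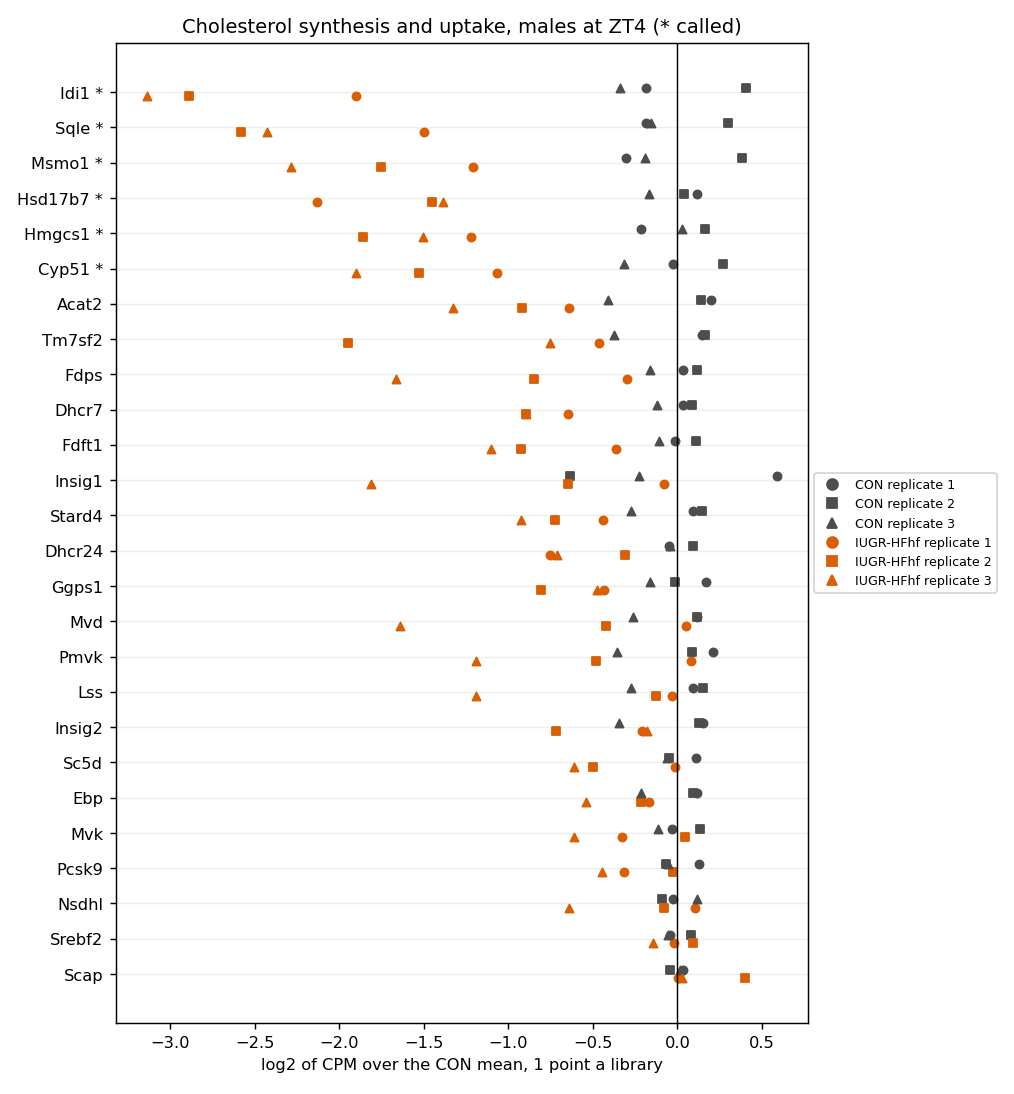
Each row is 1 of 26 genes of cholesterol synthesis and uptake and each point a library, placed by the log2 of its CPM over the CON mean, with grey for CON, orange for IUGR-HFhf and the shape for the replicate. The 6 genes marked with a star, at the top, have all 3 orange points left of all grey points, and Scap at the bottom does not.

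Promoter windows of RefSeq (assembly GRCr8, from 250 bases before to 50 bases after the gene's start) were found for 20 of the 28 listed genes. The reads were counted on rn6, so these coordinates serve only to place the windows. SREBP proteins act at promoters together with NF-Y, which binds the CCAAT box. The letters CCAAT, on either strand, occurred in 16 of the 20 windows and in 4 of the 5 available for called genes. They were in 38% of the 8421 windows of genes tested, and in 37.5% of all 33469 windows of the same length. Among the called genes outside the list they were in 5 of 16 windows of lower genes and 8 of 17 of higher genes. The sterol regulatory element written as TCACNCCAC, on either strand, was in 0 of the 20 windows and in 1.12% of all, which says only that these exact letters are not in these windows. A match is a description and not evidence of binding. Shown 5′ to 3′ on the gene's strand are the windows of the gene at the head of the pathway (Hmgcs1, chr2:53382054-53382353, plus strand), of the gene with the largest fall (Idi1, chr17:66547475-66547774, minus strand) and of the fallen gene without a CCAAT box (Cyp51, chr4:30991443-30991742, plus strand), with the CCAAT letters, or their reverse complement, in capitals.
Hmgcs1: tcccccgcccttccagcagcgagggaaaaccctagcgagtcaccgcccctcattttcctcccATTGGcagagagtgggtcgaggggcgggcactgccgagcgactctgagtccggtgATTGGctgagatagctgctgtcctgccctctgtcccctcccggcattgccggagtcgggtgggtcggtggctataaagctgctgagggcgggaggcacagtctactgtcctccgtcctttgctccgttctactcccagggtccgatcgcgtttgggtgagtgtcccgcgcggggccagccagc
Idi1: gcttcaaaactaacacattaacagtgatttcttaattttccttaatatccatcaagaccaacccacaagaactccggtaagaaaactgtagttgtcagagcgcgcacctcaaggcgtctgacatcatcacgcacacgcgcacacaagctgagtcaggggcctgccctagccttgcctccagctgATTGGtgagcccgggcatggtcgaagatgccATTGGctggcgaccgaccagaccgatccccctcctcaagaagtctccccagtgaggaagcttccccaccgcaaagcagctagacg
Cyp51: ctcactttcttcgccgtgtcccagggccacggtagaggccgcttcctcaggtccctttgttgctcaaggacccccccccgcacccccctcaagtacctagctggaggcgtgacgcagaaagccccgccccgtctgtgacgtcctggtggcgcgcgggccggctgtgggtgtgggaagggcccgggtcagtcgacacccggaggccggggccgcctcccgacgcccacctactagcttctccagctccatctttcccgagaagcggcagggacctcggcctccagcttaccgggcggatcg

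Genes of fatty acid and triglyceride synthesis lay mostly higher, but few passed the test. Of 27 listed genes 25 were tested, 1 rose (Dgat2) and 0 fell, where 0.217% of all genes were called higher. The median log2 fold change was 0.55 and 22 of the 25 values were positive. In 9 of the 25 every IUGR-HFhf library lay above every CON library, against 9.98% of all genes. Dgat2, which joins the last fatty acid to make triglyceride, was 358, 299 and 260 CPM in CON and 562, 609 and 624 CPM in IUGR-HFhf. The IUGR-HFhf values were close together and all above CON, with a difference of 0.97 on the log2 scale (SE 0.173, adjusted p = 0.00313 in edgeR). It stayed called with any 1 library left out except CON replicate 2 (highest adjusted p = 0.0561).

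The upstream genes of the list were split within IUGR-HFhf. Fasn, the fatty acid synthase, was 1957, 860 and 2223 CPM in CON and 7754, 6639 and 1425 CPM in IUGR-HFhf. Replicates 1 and 2 were far above CON while replicate 3 lay inside the CON range, and the log2 fold change of 1.65 did not pass (SE 0.505, adjusted p = 0.138 in edgeR). Acaca, which makes the malonyl-CoA that Fasn uses, had the same arrangement, with 378, 267 and 452 CPM in CON against 829, 927 and 352 CPM. Pnpla3, a lipid droplet hydrolase that sugar and insulin induce, spread widest, from 22.1 to 322 CPM in CON and from 117 to 1172 CPM in IUGR-HFhf. CON replicate 2 was the lowest of all 6 livers in Fasn, Acaca and Pnpla3, and IUGR-HFhf replicate 3 the lowest of its group.

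Other lipogenic genes were separate between the groups despite this. Srebf1, which encodes SREBP-1c, was 603, 497 and 777 CPM in CON and 1420, 1921 and 926 CPM in IUGR-HFhf (1.18, adjusted p = 0.0729 in edgeR). Thrsp, a small lipogenic protein, had 771, 345 and 626 CPM in CON and 1723, 1684 and 887 CPM in IUGR-HFhf (1.30, adjusted p = 0.05, just outside the call). Scd1, the desaturase that makes oleate, had 6160, 4820 and 9099 CPM in CON and 21408, 22005 and 11326 CPM in IUGR-HFhf (1.45, adjusted p = 0.198). In all 3 genes replicate 3 was again the lowest of IUGR-HFhf, though above the highest CON liver. Scd2, a related desaturase, was 18.7 to 21.1 CPM in CON and 210, 60.6 and 50.1 CPM in IUGR-HFhf, with replicate 1 standing out (2.46, SE 0.952, adjusted p = 0.258).

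**Figure D3:**
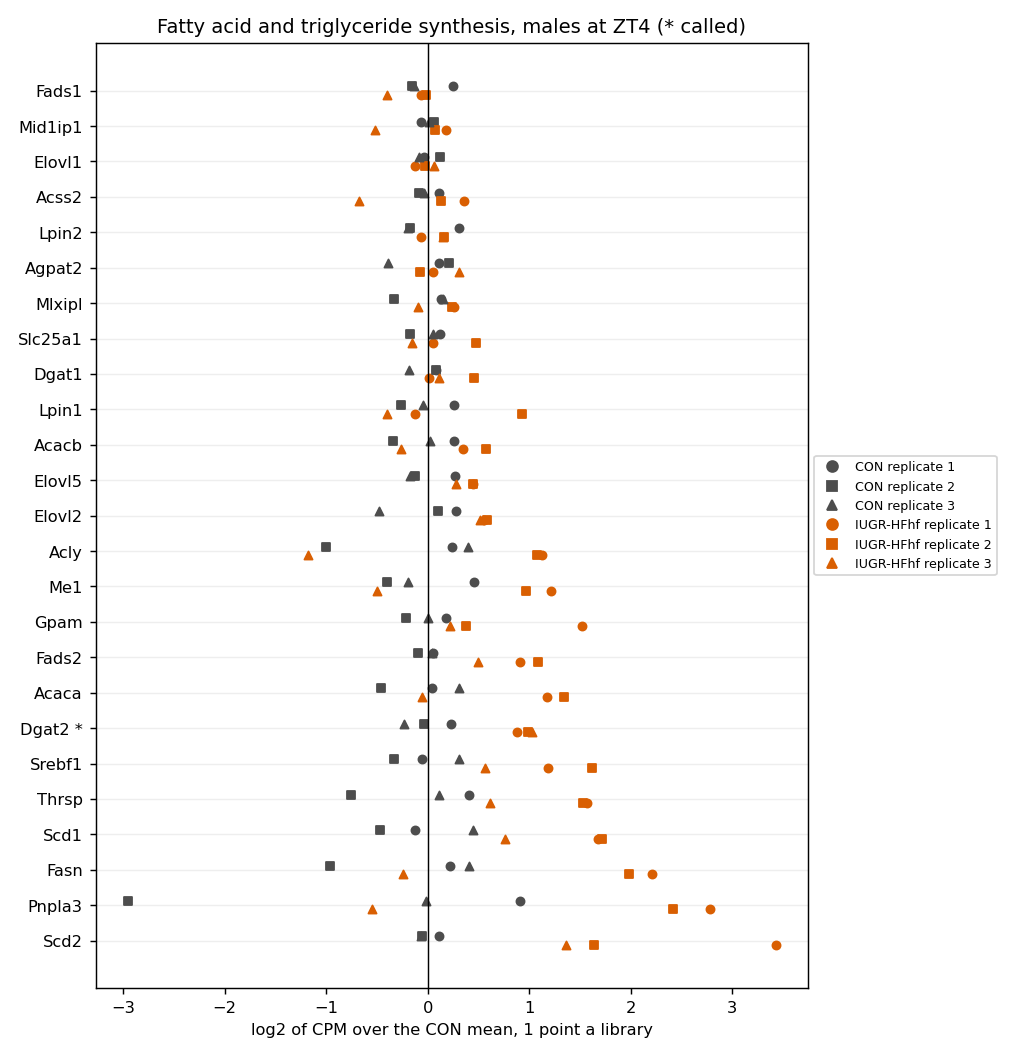
Each row is a gene of fatty acid and triglyceride synthesis and each point a library, placed by the log2 of its CPM over the CON mean (grey CON, orange IUGR-HFhf, shape for the replicate). The orange triangles of IUGR-HFhf replicate 3 lie left of the other orange points in Fasn, Acaca, Pnpla3 and Acly, and the 3 points of Dgat2, the 1 gene with a star, lie together.

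Sugar-handling genes lay mostly higher and none passed. Of 27 tested genes of fructose and glucose use 0 rose and 0 fell, with 23 positive values, a median log2 fold change of 0.34, 8 with IUGR-HFhf wholly above CON and 1 wholly below, against 9.98% and 10.9% of all genes. Slc2a5, the fructose transporter GLUT5, had 29.2, 21.1 and 30 CPM against 58.0, 84.7 and 49.2 CPM (1.26, adjusted p = 0.183 in edgeR), and the groups were separate. Pklr, the liver pyruvate kinase and a ChREBP target, was 511, 319 and 654 CPM in CON and 1114, 1130 and 447 CPM in IUGR-HFhf, so replicate 3 again fell inside the CON range.

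Among 28 tested genes for gluconeogenesis and for amino acid breakdown 1 rose and 0 fell, where 0.217% of all genes were called higher. The rise was that of Pc, the pyruvate carboxylase that makes oxaloacetate from pyruvate. It was 748, 552 and 615 CPM in CON and 901, 1192 and 1046 CPM in IUGR-HFhf (0.71, SE 0.143, adjusted p = 0.00964 in edgeR). Pck1, the next enzyme of gluconeogenesis, lay the other way, with 2307 to 3356 CPM in CON and 1078 to 1696 CPM in IUGR-HFhf, and did not pass (-1.03, adjusted p = 0.442). The list's median was -0.06.

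Genes of fatty acid oxidation and PPAR alpha targets gave no call among 40 tested, with a median of 0.24, 13 of the 40 with IUGR-HFhf wholly above CON and 1 wholly below, against 9.98% and 10.9% of all genes. Cpt1a, the gate of mitochondrial fatty acid entry, was 322, 222 and 280 CPM in CON and 456, 854 and 813 CPM in IUGR-HFhf. Its groups were separate and its adjusted p was 0.0584 (log2 fold change 1.37, SE 0.350). Acadm, the medium-chain acyl-CoA dehydrogenase, was lower, 634 to 664 CPM against 452 to 507 CPM, without passing (-0.45, adjusted p = 0.102). In the lipoprotein list 0 of 20 passed, with 16 positive values and a median of 0.22. Of these 20 genes 8 lay wholly above CON and 1 wholly below, against the same shares of all genes. Tm6sf2, which helps load lipid onto very-low-density lipoprotein and is on none of the lists, rose from 37.6, 28.8 and 35.4 CPM to 59, 65.6 and 49.7 CPM (0.78, SE 0.175, adjusted p = 0.0278 in edgeR). Plin2, a lipid droplet coat protein, overlapped between the groups at 0.26.

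Among 15 tested clock genes 0 were called with edgeR. Of these 6 lay wholly above CON, against 9.98% of all genes, and 3 wholly below, against 10.9%. Dbp, a clock output transcription factor, was 3.56, 4.49 and 6.47 CPM in CON and 24.9, 76.8 and 77.7 CPM in IUGR-HFhf. All 3 IUGR-HFhf livers exceeded the highest CON liver several times over, replicate 1 least, and the log2 fold change was 3.62 with a wide error (SE 1.02, adjusted p = 0.0997 in edgeR). Per3, a period gene, had 3.27, 2.11 and 5.43 CPM in CON and 12.3, 30.2 and 19.7 CPM in IUGR-HFhf (2.51, SE 0.749, adjusted p = 0.126). Nr1d1, which encodes Rev-erb alpha, was 23.2, 20.3 and 64.5 CPM in CON and 91.7, 146 and 165 CPM in IUGR-HFhf (1.89, adjusted p = 0.104). Tef and Nr1d2 were also separate and higher, at 1.09 and 0.81.

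On the opposite side, Arntl was 60.6, 54.5 and 48.6 CPM in CON and 38.9, 20.7 and 26.4 CPM in IUGR-HFhf (-0.93, adjusted p = 0.513 in edgeR). Clock and Nfil3 were separate and lower, at -0.35 and -0.50, and Npas2 overlapped at -0.21. For scale, CON males at ZT16 had 58.4 to 139 CPM of Dbp, 52 to 63.8 CPM of Per3 and 2.36 to 9.95 CPM of Arntl. The IUGR-HFhf livers at ZT4 lay between the CON livers of the 2 times for Per3 and Arntl, and in Dbp replicates 2 and 3 were within the CON range at ZT16. Nr1d1 did not lie between them: CON at ZT16 had 18.8 to 40.8 CPM, so IUGR-HFhf at ZT4 was above CON at both times. Npas2 was 0.132 to 0.315 CPM in CON at ZT16, far below the 34.1 to 47.9 CPM of IUGR-HFhf at ZT4. Per2, another period gene, was 119 to 171 CPM in CON at ZT16 and 21.5 to 39.6 CPM in IUGR-HFhf at ZT4, near the 19.8 to 25.6 CPM of CON at ZT4. Without 4 libraries of other groups that stand apart, Dbp and Per3 each had an adjusted p of 0.03 in edgeR. The 4 were HFhf male ZT16 replicate 3, IUGR-HFhf female ZT4 replicate 2, and IUGR-RC female ZT4 replicates 2 and 3. They were picked by name, and the rule behind the choice is not given here. DESeq2 called 2 clock genes, these same ones. With the 6 libraries fitted alone in edgeR, Dbp had an adjusted p of 0.0958 and Per3 of 0.0701. Neither was called with any 1 of the 6 libraries left out, with adjusted p up to 0.308 for Dbp and 0.4 for Per3 in edgeR. Against the same CON libraries, edgeR called both in HFhf males at ZT4 (Dbp 4.27, Per3 3.09, adjusted p = 0.0385 each). It also called both in IUGR-HFhf females at ZT4 (Dbp 3.78, adjusted p = 0.0439, and Per3 3.06, adjusted p = 0.0142). At ZT16 the IUGR-HFhf values were negative and not called, with Dbp -1.57 in males and -0.97 in females, and Per3 -0.89 and -0.54. Collection times beyond the ZT label are not given, and their part in these values was not tested.

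**Figure D4:**
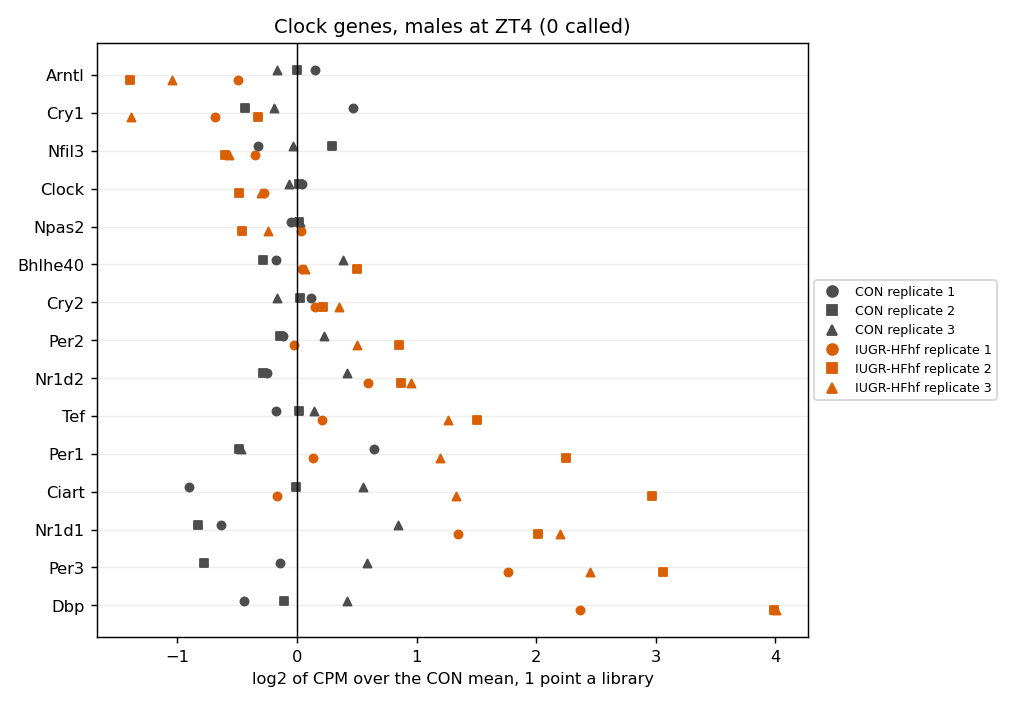
Each row is a clock gene in males at ZT4 and each point a library, placed by the log2 of its CPM over the CON mean (grey CON, orange IUGR-HFhf, shape for the replicate). Dbp, Per3 and Nr1d1 have all orange points to the right of the grey ones and Arntl has them to the left, and no gene was called.

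Of 32 genes of the unfolded protein and integrated stress response 1 rose and 0 fell, where 0.217% of all genes were called higher. The rise was that of Herpud1, an endoplasmic reticulum protein that helps remove misfolded proteins. It was 139, 109 and 194 CPM in CON and 257, 430 and 311 CPM in IUGR-HFhf (1.17, SE 0.194, adjusted p = 0.00131 in edgeR). The other genes of the list did not pass, and its median was 0.08. Of the 32 genes 7 lay wholly above CON and 3 wholly below (all genes 9.98% and 10.9%). Asns was 1.06 to 3.41 CPM in CON and 3.87 to 6.49 CPM in IUGR-HFhf (1.25, adjusted p = 0.345 in edgeR). Ddit3, which encodes CHOP, was 6.21 to 8.32 CPM against 3.56 to 6.37 CPM (-0.49, adjusted p = 0.462 in edgeR).

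Single members of other lists passed, where 0.217% of all genes were called higher and 0.244% lower. Akr1d1, the 5 beta-reductase shared by bile acid and steroid hormone metabolism, fell from 2027, 2923 and 3150 CPM to 1626, 1476 and 1253 CPM (-0.90, SE 0.224, adjusted p = 0.0492 in edgeR), the 1 call among 23 bile acid genes. Cyp7a1, the rate-limiting enzyme of bile acid synthesis, overlapped between the groups. Il6r, the receptor of interleukin 6, rose from 106, 83.5 and 85 CPM to 117, 267 and 233 CPM (1.17, adjusted p = 0.0226 in edgeR). It was the 1 call among 22 acute phase genes, with replicate 1 barely above CON. Of these 22 genes 14 had a negative value, and 3 lay wholly above CON and 7 wholly below (all genes 9.98% and 10.9%). Aldh1b1, a mitochondrial aldehyde dehydrogenase on the periportal list, rose from 7.54, 6.21 and 4.91 CPM to 35, 11.5 and 27.6 CPM (2.0, adjusted p = 0.0340), and the other 15 periportal genes tested did not pass.

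The rise with the smallest p was that of Sdr42e1, a member of the short-chain dehydrogenase family. It was 40.7, 44.9 and 46.9 CPM in CON and 68.5, 119 and 126 CPM in IUGR-HFhf. CON was tight and all IUGR-HFhf livers were above it (1.24, SE 0.184, adjusted p = 0.000229 in edgeR), and it was called with each of the 6 libraries left out in turn. Sall1, a zinc finger transcription factor, rose from 54.5, 49.4 and 41.5 CPM to 90.2, 209 and 143 CPM (1.60, SE 0.282, adjusted p = 0.00313). Trim24, a coregulator of nuclear receptors, rose from 3.56, 3.57 and 3.88 CPM to 11.6, 15 and 11.5 CPM (1.78). The 3 CON values were nearly equal, and no IUGR-HFhf value came near them.

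Further rises of at least 2-fold were Synj2, an inositol phosphatase (1.44), Kcnn2, a calcium-activated potassium channel (1.43), Chst13, a sulfotransferase of chondroitin (1.34), Ptprn, a phosphatase-like protein of secretory vesicles (1.34), and Ppp1r3d, a subunit that targets a phosphatase to glycogen (1.04). L3hypdh, a hydroxyproline dehydratase, was just short of 2-fold at 0.98. Hdc, the histidine decarboxylase that makes histamine, had the highest log2 fold change, 2.64 (SE 0.635), but its groups overlapped, since IUGR-HFhf replicate 1 had 8.26 CPM and CON replicate 2 had 8.58 CPM. Ctsb and Atp6v0a2 were among the smaller rises. Ctsb, the protease cathepsin B, went from 528 to 614 CPM to 838 to 952 CPM (0.65), and Atp6v0a2, a subunit of the proton pump, had 0.63.

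Both genes of an oxidase that makes hydrogen peroxide fell. Duox1 encodes the enzyme and Duoxa1 the partner that it needs to mature. Duoxa1 was 10.2, 9.11 and 5.43 CPM in CON and 1.18, 0.517 and 1.67 CPM in IUGR-HFhf (-2.84, SE 0.552, adjusted p = 0.00805 in edgeR). Duox1 was 17.4, 11.4 and 3.88 CPM in CON and 3.42, 1.55 and 2.78 CPM in IUGR-HFhf (-2.05, SE 0.457, adjusted p = 0.0246). CON replicate 3 was the lowest CON liver for both, and in Duox1 it was only just above IUGR-HFhf replicate 1. The 2 genes are neighbours on the chromosome, and whether counting used strand is not given in the sources used here.

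Hyal1, a hyaluronidase, fell from 55.8, 79.2 and 60.9 CPM to 32.4, 17.4 and 19.6 CPM (-1.49, adjusted p = 0.0411 in edgeR). Camk2n1, an inhibitor of a calmodulin kinase, had -1.48, Isyna1, which makes inositol phosphate, -1.03, and Crem, a transcription factor of the cyclic AMP response, -0.91. Pon3, a lactonase carried on high-density lipoprotein, fell from 261, 272 and 263 CPM to 149, 142 and 208 CPM (-0.67), with replicate 3 the least reduced. The falls with the largest standard errors are given in reads. Ryr2, an intracellular calcium channel, had 75, 20 and 77 reads in CON and 5, 8 and 2 in IUGR-HFhf, a share of reads 13.2 times higher in CON (95% interval 7.78 to 24.1, exact conditional Poisson). Car1, a carbonic anhydrase, had 23, 26 and 12 reads against 3, 1 and 1, a ratio of 14 (5.70 to 44.8). Slc29a4, a monoamine transporter, had 15, 15 and 7 reads against 1 in each IUGR-HFhf library, a ratio of 14.2 (4.49 to 71.9). These intervals cover counting error only.

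Markers of other liver cells gave no call, where 0.462% of all genes were called. Of 15 tested markers of Kupffer cells and macrophages 14 had a negative log2 fold change, with a median of -0.11. Over all 11047 genes 5402 were negative. Of the 15 markers 0 lay wholly above CON and 3 wholly below (all genes 9.98% and 10.9%). The sum of these markers was 822 to 878 CPM in CON and 601 to 806 CPM in IUGR-HFhf. Marco, a scavenger receptor of Kupffer cells, was 41.8, 39 and 33.1 CPM in CON and 2.83, 9.81 and 5.68 CPM in IUGR-HFhf. The groups were far apart and the adjusted p was 0.0507 (log2 fold change -2.65, SE 0.661). Against CON, edgeR called Marco lower in HFhf males at ZT4 (-4.34, adjusted p = 0.00284). In IUGR-HFhf females it was called lower at ZT4 (-2.75, adjusted p = 0.0439) and ZT16 (-4.89, adjusted p = 0.00016). In IUGR-HFhf males at ZT16 it had -2.11 (adjusted p = 0.0516). Clec4f, another Kupffer cell marker, overlapped, with 111 to 157 CPM and 79.2 to 142 CPM. In bulk tissue fewer cells of a type and less RNA per cell cannot be told apart. The summed levels of cholangiocyte, stellate, sinusoidal endothelial, T cell, B cell, neutrophil and erythroid markers overlapped between the groups.

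IUGR-HFhf and HFhf males at ZT4 shared the Western diet and fructose, and their difference bears on the restriction before birth, with the dams' diet in gestation differing too. With edgeR's test 0 of 11047 genes passed (0%), with 819 at an unadjusted p under 0.05 and a smallest adjusted p of 0.0998. DESeq2 called 2. The 95% interval of a gene's difference reached 0.414 to either side on the log2 scale at the median. For Idi1 the difference was -0.60 with an interval of -1.58 to 0.39, for Hmgcs1 0.13 (-0.53 to 0.79), for Dgat2 0.29 (-0.06 to 0.64) and for Sdr42e1 0.11 (-0.25 to 0.48). The gene nearest to the threshold was Ptprn, with 6.63, 8.70 and 5.85 CPM in HFhf against 16.9, 15.2 and 24.5 CPM in IUGR-HFhf, a difference of 1.43 (interval 0.80 to 2.06), chosen after its values were seen.

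HFhf against CON used the same 3 CON libraries, so the 2 comparisons are not independent and are only set side by side. It called 76 genes (0.688%). Of the 24 genes called higher in IUGR-HFhf it called 11 in the same direction, and of the 27 lower genes 11. In HFhf the log2 fold change was -1.94 for Idi1, -1.64 for Hmgcs1, 0.68 for Dgat2, 1.13 for Sdr42e1, 1.04 for Herpud1, -2.33 for Duoxa1 and 4.27 for Dbp. Other genes called in IUGR-HFhf moved little in HFhf, such as Eml5 (-0.05), Ptprn (-0.09), Crem (-0.25) and Camk2n1 (-0.28). The HFhf livers had 11.9, 12.7 and 11.2 CPM of Idi1 and 488, 514 and 466 CPM of Dgat2. Fasn was 6029, 3985 and 2791 CPM there, all above CON.

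The same diet history was compared with CON at the other time and in females, in libraries whose means the male ZT4 comparison did not use. These libraries were in the same fit, so they entered the estimate of the spread behind the 51 calls. In males at ZT16, where 366 genes were called (3.31%), 43 of the 51 genes had the same sign as at ZT4, against 52% of all genes, and 13 were called in that direction. In females at ZT4, with 75 genes called (0.679%), 41 of the 51 had the same sign, against 60.2% of all genes, and 10 were called. In that stratum replicate 2 of the 4 IUGR-HFhf libraries is among those that stand apart. In females at ZT16, with 245 called (2.22%), 36 of the 51 did, against 54.9%, and 9 were called. Sizes were smaller there: the 24 higher genes had a median log2 fold change of 1.10 in males at ZT4 and of 0.42, 0.29 and 0.13 in the other strata in the same order. The genes were chosen on the male ZT4 values, so the larger size there is not a finding.

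The 6 cholesterol genes had negative values in every stratum. Idi1 had log2 fold changes of -1.15 in males at ZT16 (adjusted p = 0.116 in edgeR), -1.89 in females at ZT4 (0.0142) and -1.73 at ZT16 (0.00928). Hmgcs1 had -0.94, -1.65 and -1.80 in the same order and was called in both female strata. Dgat2 was called in all 3, with 0.74, 0.78 and 0.85, and so was Tm6sf2, with 0.86, 0.85 and 1.11. Herpud1 was called in females at ZT4, at 0.98, and had 0.07 and 0.14 in males and females at ZT16. Acsl3 lay at 0.27, -0.01 and 0.25. Trim24 and Aldh1b1 were called in males at ZT16, with 1.68 and 2.21, and had 0.14 and 0.43 in females at ZT4.

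**Figure D5:**
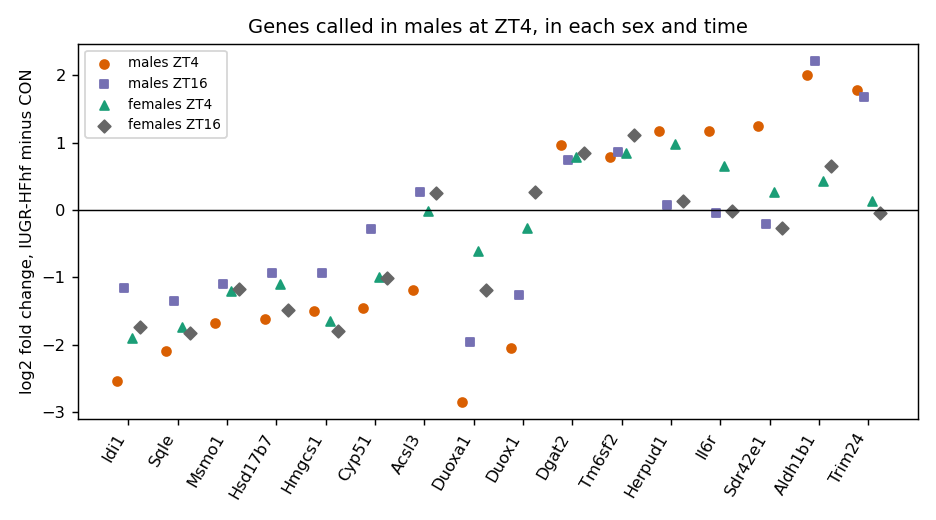
The vertical axis gives the log2 fold change of IUGR-HFhf over CON in each of the 4 strata of sex and time (shape and colour) for 16 genes called in males at ZT4. The 6 cholesterol genes at the left are negative in all 4 strata, Dgat2 and Tm6sf2 are positive in all 4, and at ZT16 Il6r lies near 0 and Sdr42e1 just below it.

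Whether the effect in males differed between the times was tested as an interaction. It passed for 2 of 11047 genes (0.0181%), Sdr42e1 and Irx1, with 1286 at an unadjusted p under 0.05. DESeq2 called 49, and leaving out 1 library gave 0 to 17 with edgeR. For Idi1 the difference of the effects (ZT4 minus ZT16) was -1.38 (adjusted p = 0.382 in edgeR), for Herpud1 1.10 (adjusted p = 0.0912 in edgeR) and for Acsl3 -1.46 (adjusted p = 0.0912). Between the sexes at ZT4 the difference passed for 0 genes (0%) in edgeR, with 599 at an unadjusted p under 0.05, and DESeq2 called 7. It was 0.97 for Sdr42e1 (males minus females, adjusted p = 0.236 in edgeR) and -1.18 for Acsl3 (adjusted p = 0.242). The female IUGR-HFhf group at ZT4 holds a library that stands apart.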

How the data were processed

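Raw read counts per gene of 56 rat liver libraries, as deposited by the authors, were the starting point. Per the submitters' processing notes, FastQC, STAR, featureCounts (Subread) and DESeq2 were used with build rn6; versions are not given in the sources used here, nor whether counting used strand. Per the labels' protocols, libraries came from a stranded kit with ribosomal RNA removal, though the molecule field says polyA RNA. The authors' deposited table for these groups holds log2 fold changes, adjusted p-values, a mean signal of size-factor-scaled counts and a score for the authors' call (1, -1 or 0). It was used only where named.

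Genes were kept with filterByExpr (11047 of 17337). With edgeR 4.0.16 (R 4.3.3) 1 model was fitted to all 56 libraries, giving each of 16 groups of sex, time and diet its own mean, TMM scaling, robust dispersions and 40 residual degrees of freedom. P-values are from two-sided quasi-likelihood F tests, Benjamini-Hochberg adjusted over all genes tested, with a threshold of 0.05. The shared fit assumes equal dispersion across groups. CPM use TMM-scaled library sizes. The procedure was tested on simulated data. Members and gene lists were chosen with earlier results of these data known. Named genes were the 12 largest rises and falls that passed the test, averaged 1 CPM or more and had groups that do not overlap, up to 4 called members of each list, a fixed set of genes regardless of their test, and the 2 largest calls in each direction of the other comparisons; genes named outside this rule are list members, or called genes shown for their size or overlap. Of 826 list entries 782 matched a symbol of the table, 7 an older symbol and 37 none. No 2 replicates agreed within counting error (chi-square per degree of freedom 10.2 to 26.2). Some members of the lists are counted in the list totals and not reported singly here.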

Additional observations from a re-analysis of the deposited data

Results flagged for a closer look

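In males the IUGR-HFhf effect differed between ZT4 and ZT16 for 2 genes by an interaction test in edgeR. Sdr42e1, a short-chain dehydrogenase, had a difference of 1.46 on the log2 scale (SE 0.251, adjusted p = 0.0058). At ZT4 its level was 44.2 ± 3.18 CPM in the 3 CON livers and 105 ± 31.3 CPM in the 3 IUGR-HFhf livers (mean ± SD). At ZT16 it was 52.7 ± 11.3 CPM in 3 CON livers and 45.3 ± 5.95 CPM in 4 IUGR-HFhf livers. Every IUGR-HFhf liver was above CON at ZT4, and the groups overlapped at ZT16.

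Irx1, a homeobox transcription factor, had a difference of 1.71 (SE 0.335, adjusted p = 0.0331 in edgeR). It was 7.11, 7.92 and 9.05 CPM in CON and 9.56, 15.4 and 11.0 CPM in IUGR-HFhf at ZT4, where it was not called (log2 fold change 0.57, adjusted p = 0.328). At ZT16 the order was the other way, with 29.3, 20.5 and 15.3 CPM in CON and 11.7, 11.5, 7.43 and 8.38 CPM in IUGR-HFhf, and it was called (-1.14, adjusted p = 0.00169). The groups were separate at both times. The count of 2 genes was 0 without CON replicate 1 or IUGR-HFhf replicate 3 of the ZT4 males, 1 without CON replicate 2, 4 without CON replicate 3 and 17 without IUGR-HFhf replicate 1.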

How the results depend on the processing

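The alternatives were RLE scaling, other filters on low counts, DESeq2, other sets of libraries in the fit, a term for the title-number set and each library left out. Over all named genes and alternatives 813 values kept their side of the threshold, 135 lost a call, 29 gained one and 0 changed direction. The 51 calls of the main comparison became 30 with no filter on low counts, 103 with DESeq2, 103 with the 6 libraries fitted alone (32 of the 51 among them), 106 without the IUGR-RC libraries, and 3 to 42 with 1 library left out. IUGR-HFhf against HFhf went from 0 to 2 with DESeq2, 1 with the groups fitted alone, 1 with the title-number set, and 0 to 2 with 1 library left out. HFhf against CON went from 76 to 31 with no filter, 149 with DESeq2, 158 with the groups alone, 162 without IUGR-RC, 131 without the 4 libraries that stand apart, and 2 to 84 with 1 library left out. The difference between times went from 2 to 49, 90, 59 and 23 with DESeq2, the groups alone, without IUGR-RC and without the 4 libraries, and 0 to 17 with 1 library left out. The difference between sexes went from 0 to 7 with DESeq2 and 5 with the groups alone. The causes were not tested. Counts of list members under these settings were added after seeing the data: the 6 lower cholesterol genes became 3 with no filter, and the 1 higher fatty acid gene 4 with DESeq2. No paired analysis was possible because the titles give the 2 groups no shared replicate numbers.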

Other observations

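The lists of growth hormone action and sex bias, cell division, fibrosis matrix and oxidative stress gave 0 calls in males at ZT4 with edgeR. Over all genes tested 0.462% were called. Igf1, the growth factor that growth hormone induces in the liver, was 973, 1076 and 983 CPM in CON and 775, 645 and 705 CPM in IUGR-HFhf, separate between the groups with an adjusted p of 0.0635 in edgeR (log2 fold change -0.51). Among the 23 tested genes of growth hormone action and sex bias 16 values were negative, with a median of -0.22. Of the 23 genes 5 lay wholly above CON and 6 wholly below (all genes 9.98% and 10.9%). Socs2, a feedback inhibitor of growth hormone signalling, was 29.6 to 51.2 CPM against 11.6 to 22.6 CPM (-1.32, adjusted p = 0.317), and Prlr, the prolactin receptor, was 7.66 to 19.9 CPM against 32.4 to 59.6 CPM (1.97, adjusted p = 0.328).

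Of 28 tested genes of cell division 21 had a negative value, with a median of -0.23. In 5 of the 28 (all genes 10.9%) IUGR-HFhf lay wholly below CON. Top2a, a topoisomerase of dividing cells, was 4.09 to 6.47 CPM in CON and 1.68 to 3.54 CPM in IUGR-HFhf (-0.95, adjusted p = 0.348 in edgeR). Of 26 fibrosis matrix genes 21 had a positive value, with a median of 0.24, and 4 lay wholly above CON (all genes 9.98%) and 1 wholly below (10.9%). Col5a1, a fibrillar collagen chain, was 20.9 to 25.5 CPM against 31.4 to 39.7 CPM (0.57, adjusted p = 0.267). In the oxidative stress list Cat, the peroxisomal catalase, was 4522 to 5269 CPM against 3299 to 3821 CPM (-0.43, adjusted p = 0.16). Nr0b2, which encodes the bile acid regulated repressor SHP, was 3.30 to 19.9 CPM against 23.8 to 35.1 CPM (1.68, adjusted p = 0.278). Foxp2, a transcription factor, was 0.996 to 2.64 CPM in CON and 7.68 to 8.85 CPM in IUGR-HFhf (2.23, adjusted p = 0.0675).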
